A study of Mus musculus with 4 samples.

Results

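The protein-coding genes of the preimplantation mouse uterus that the authors listed as changed between low oxygen (hypoxia) and normal oxygen (normoxia) are described here. They were chosen as all genes classed as protein coding in the authors' deposited uterus table, which gave 337 of the 903 genes in that table. Pregnant mice were exposed to low oxygen from 72 hours after fertilization and the uterus was taken at embryonic day 3.5. The normoxia group is labelled as the control, and RNA of 3 samples was pooled into 1 library in each group. The labels give no oxygen level, length of exposure, strain or age. Because the genes were chosen by the fold between these 2 libraries, every fold below is a description of 2 pooled RNAs with no replicate check and no test. The table does not state which group is the numerator, so reading a positive value as higher in hypoxia is an assumption on which every direction rests.

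At this stage of pregnancy the mouse embryo has reached the uterus and is about to attach. The surface (luminal) epithelium stops dividing and changes its secretions under progesterone from the ovary, while a short rise of estrogen opens the period in which attachment is possible. Glands below the surface secrete factors such as leukemia inhibitory factor, the stroma prepares to differentiate into decidua, and smooth muscle forms the outer wall. Estrogen is known to raise secreted proteins of the mouse uterine epithelium such as lactoferrin. Cells respond to low oxygen mainly through hypoxia-inducible factors, which raise genes of glycolysis, blood vessel growth and red cell formation.

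Of the 337 genes, 192 were higher in hypoxia (57.0%) and 145 lower, against 54.4% higher among all 903 listed genes. They made up 1.54% of the 21924 protein-coding genes of the annotation, the higher ones 0.876% and the lower ones 0.661%, a background that also holds genes the uterus may not express. Log2 fold changes in the authors' deposited table ran from -5.03 for Krt83 to 5.58 for Gsdmc2, a gasdermin gene with terms, as defined next, of 48 and 1. The values nearest the threshold of 2 were 2.01, for Pcdh10 and Nrg1, and -2.01, the ratio of 1 to 4 shared by 32 genes, and genes outside it are not in the table. Each fold, after division by a factor of 0.995 shared by the whole table, equalled a ratio of 2 whole numbers, called terms here and given with hypoxia first. A term was read as a read count plus 1, an inference that no source states, and a factor common to both terms is lost. Terms are not divided by gene length, so they show the weight behind a ratio and not which gene is more abundant.

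The terms, recovered without any common factor, were small for most genes, and the true ones could be larger. In 174 of the 337 genes (51.6%) the smaller term was 1, and the median sum of both terms was 13, against 7 for the other 566 listed genes. A sum of 50 or more was reached by 77 of the 337 (22.8%) and by 22 of the other 566 (3.89%). Of these 77 better-counted genes, 52 were higher and 25 lower. The exact 95% counting interval of the fold lay wholly beyond a ratio of 1 in 235 genes (69.7%), 147 higher and 88 lower, against 54.2% of all listed genes. Intervals cover counting error between the 2 libraries only, and the genes were listed for being far from 1. Annotated exons of 61 of the 337 genes overlap a gene on the other strand, 18 of them among the better-counted genes. Mfap4, Muc20, Has3, Prap1, Mmp7, Hhip and Slc13a5 are among these, and the labels do not say whether the counting used strand.

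**Figure D1:**
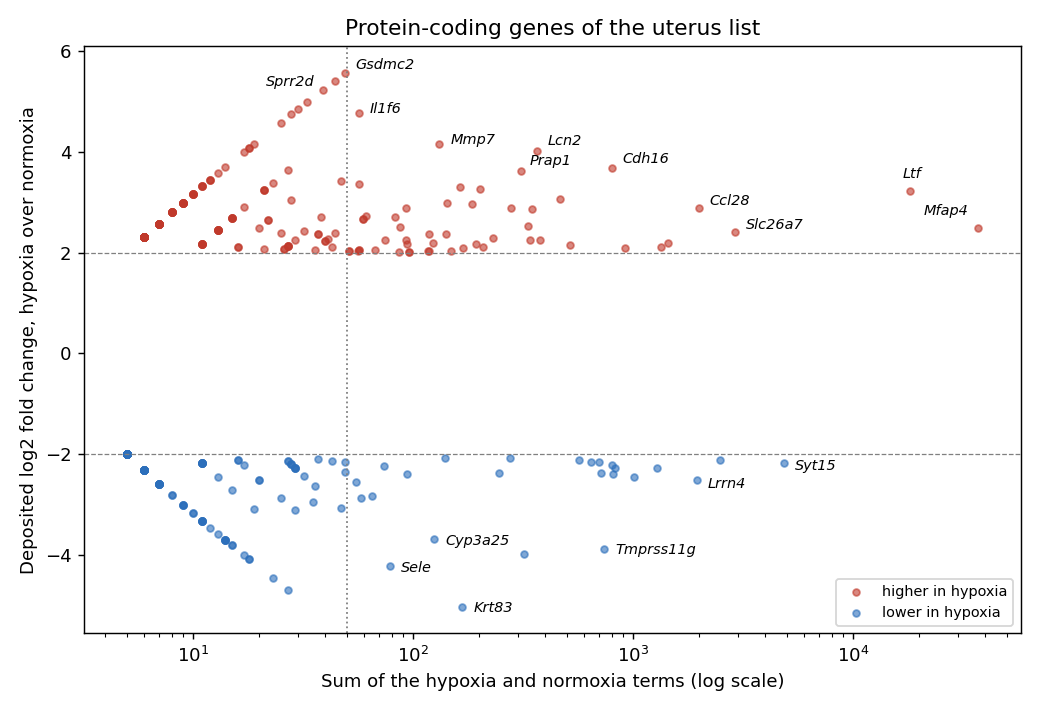
Each point is 1 of the 337 protein-coding genes, placed by the sum of its hypoxia and normoxia terms (log axis) and by the deposited log2 fold change; dashed lines mark the threshold of 2 and the dotted line a sum of 50. Points left of the dotted line fall on lines because the smaller term is 1 or another small number, while Mfap4, Ltf, Syt15, Slc26a7, Ccl28 and Lrrn4 carry large sums.

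The better-counted genes were sorted by where their proteins act. By the place of the protein, assigned after the values were seen, 27 of the 76 better-counted genes with a given name encode secreted proteins, 22 higher and 5 lower in hypoxia. Another 27 encode proteins of the cell surface, 18 higher and 9 lower. Membrane-bound enzymes inside the cell numbered 8, with 4 higher and 4 lower. The rest were 4 cytoskeletal, 3 vesicle and 2 nuclear proteins and 5 of other or unsure place, and 1 further better-counted gene, the unnamed gene model Gm7298, was lower on terms of 19 to 301.

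The listed members of the acute phase and antimicrobial list were all higher. Like all 38 gene lists used here, it was chosen with earlier results of these data known, so the list shares are descriptions only. Of 46 acute phase and antimicrobial genes, 7 were listed (15.2%, against 1.54% of all protein-coding genes) and all 7 were higher. Their median log2 fold change in the authors' deposited table was 2.30, below the 2.50 of all 192 higher genes. Ltf, for the iron-binding lactoferrin, had terms of 16403 in hypoxia and 1740 in normoxia, a 9.38-fold difference with a counting interval of 8.93 to 9.87. Lcn2, for lipocalin 2, which withholds siderophore-bound iron from bacteria, had terms of 344 and 21, or 16.3-fold (10.9 to 28.3). Sftpd, for surfactant protein D, a collectin that binds microbial sugars, had terms of 415 and 49, or 8.43-fold (6.36 to 11.8). S100a8 and S100a9 encode the subunits of calprotectin, which sequesters metal ions. S100a8 had terms of 193 and 39, or 4.93-fold (3.54 to 7.32), and S100a9 had 95 and 23, or 4.11-fold (2.65 to 7.11), so their folds overlapped within counting error. The acute phase gene Saa3 had terms of 54 and 13, and the beta-defensin gene Defb1 had 33 and 7. Jchain, which joins immunoglobulin A and M units for export across epithelia, had terms of 1092 and 251, or 4.33-fold (3.78 to 5.004). The secreted BPI-fold gene Bpifb5, chosen after its values were seen, had terms of 285 and 49.

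The promoters of 4 of these genes, which were higher together, are shown from 250 bases before to 50 bases after the RefSeq gene start on GRCm38.p6, 5′ to 3′ on the gene's strand. Capitals mark any match to the motifs searched, which are spelled out with the low-oxygen genes further on.
Ltf, chr9:111019042-111019341, plus strand: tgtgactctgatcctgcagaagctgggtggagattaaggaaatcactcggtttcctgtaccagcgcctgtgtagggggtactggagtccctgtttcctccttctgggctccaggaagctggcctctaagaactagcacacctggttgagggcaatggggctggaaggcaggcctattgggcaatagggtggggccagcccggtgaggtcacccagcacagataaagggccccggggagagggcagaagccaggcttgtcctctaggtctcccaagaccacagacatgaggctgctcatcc
Lcn2, chr2:32387690-32387989, minus strand: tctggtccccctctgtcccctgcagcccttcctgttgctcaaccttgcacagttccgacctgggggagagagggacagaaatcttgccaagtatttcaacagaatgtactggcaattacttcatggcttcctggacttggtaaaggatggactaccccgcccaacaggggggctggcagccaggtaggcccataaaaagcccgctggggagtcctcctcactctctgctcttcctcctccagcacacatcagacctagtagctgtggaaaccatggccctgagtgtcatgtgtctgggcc
S100a8, chr3:90668821-90669120, plus strand: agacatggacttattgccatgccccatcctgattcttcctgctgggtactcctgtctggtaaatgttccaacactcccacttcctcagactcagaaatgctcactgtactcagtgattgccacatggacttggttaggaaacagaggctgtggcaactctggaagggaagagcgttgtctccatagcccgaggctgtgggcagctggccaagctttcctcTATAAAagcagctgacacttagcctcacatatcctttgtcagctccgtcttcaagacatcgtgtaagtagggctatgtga
S100a9, chr3:90695672-90695971, minus strand: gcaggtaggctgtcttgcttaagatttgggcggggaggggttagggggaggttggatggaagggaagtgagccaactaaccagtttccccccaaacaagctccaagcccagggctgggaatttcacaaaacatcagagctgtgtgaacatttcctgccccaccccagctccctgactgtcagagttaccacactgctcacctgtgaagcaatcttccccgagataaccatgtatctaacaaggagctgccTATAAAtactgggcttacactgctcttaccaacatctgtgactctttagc
The letters TATAAA began 30 bases before the gene start in S100a8 and at the first base after it in S100a9, and none of the searched motifs was found in the Ltf and Lcn2 windows. A match or its absence says nothing of whether a factor acts there.

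Genes that mark neutrophils were also all on the higher side. Of 26 neutrophil markers 8 were listed (30.8%, against 1.54% of all protein-coding genes), all 8 higher, with a median log2 fold change of 2.68 in the authors' deposited table. They were S100a8, S100a9, Ltf and Lcn2, which epithelial cells can also make, and the granulocyte genes Cxcr2, Trem1, Stfa2l1 and Fpr2. S100a8, S100a9, Ltf and Lcn2 are also counted in the acute phase and antimicrobial list, so the counts of these lists are not separate. Cxcr2, the receptor for neutrophil-attracting chemokines, had terms of 31 and 6. Trem1, an activating receptor of myeloid cells, had terms of 19 and 2, the stefin gene Stfa2l1 8 and 1, and the formyl peptide receptor gene Fpr2 5 and 1. The counting interval of Fpr2 included 1. The granule genes Mpo, Elane, Camp and Ngp and the surface marker gene Ly6g were not among those listed, while Ltf and Lcn2, which neutrophils also keep in granules, were. With a pseudocount of 5 added to both counts, Cxcr2, Trem1, Stfa2l1, Fpr2 and S100a9 came below the log2 threshold of 2, at 1.80, 1.93, 1.26, 0.84 and 1.87. In a pooled tissue RNA, more cells of a type and more RNA per cell cannot be told apart, and the part of neutrophils in the values of Ltf and Lcn2 was not tested.

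Cytokine genes followed the same side. Of 60 interleukins and other cytokines 7 were listed (11.7%, against 1.54% of all protein-coding genes), all higher. Their median log2 fold change in the authors' deposited table was 2.66. Il1f6, which encodes the epithelial alarm cytokine interleukin-36 alpha, had terms of 55 and 2, or 27.4-fold, with a counting interval of 9.25 to 2162 that leaves the size open to a wide range. Il11, required in mice for decidua formation through its receptor, had terms of 22 and 5, and Il19, a relative of interleukin 10, had 21 and 4. Il12b, the subunit shared by interleukins 12 and 23, had 19 and 3. Il13, Il1f9 and Lta had 9, 7 and 5 against 1, and the interval of Lta included 1. Thus 1 of the 7, Il1f6, reached a sum of terms of 50. Leukemia inhibitory factor (Lif) was not among the listed genes.

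Of 37 chemokine genes 3 were listed (8.11%, against 1.54% of all protein-coding genes), 2 higher and 1 lower. Ccl28, a mucosal chemokine that draws cells secreting immunoglobulin A, had terms of 1759 and 237, or 7.39-fold (6.47 to 8.53). Ccl17, made by dendritic cells for T cells, had terms of 77 and 17, or 4.51-fold (2.73 to 8.69). Ppbp, a platelet chemokine, was lower on terms of 2 to 9. The chemokine receptor gene Ccr7, which guides dendritic cells to lymph nodes, was higher with 51 and 8. With Ccl17 it made up the 2 listed of 21 dendritic cell markers (9.52%). Macrophage markers gave 2 of 28 (7.14%), both higher, Clec4d with 69 and 17 and the elastase gene Mmp12 with 24 and 5. The 2 listed of 37 T and natural killer cell markers (5.41%) were lower. They were the granzyme genes Gzmd, with terms of 40 and 207, or 5.20-fold lower (3.75 to 7.68), and Gzme, with 7 and 30. Both encode proteases of killer cell granules, are known from uterine natural killer cells, and are close copies whose reads the counting could have split. T cell genes outside that list lay on the other side, and were picked out after their values were seen. Themis, a T cell signalling gene, was higher at 17 and 4, and Trat1, an adaptor of the T cell receptor, at 11 and 2.

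Growth factor and morphogen genes were listed in both directions. Of 102 such genes 7 were listed (6.86%, against 1.54% of all protein-coding genes), 5 higher and 2 lower. Wnt2, a secreted Wnt ligand, had terms of 101 and 22, or 4.57-fold higher (2.94 to 7.99). Igfbp2, which binds insulin-like growth factors, had 94 and 23, and the stress-induced factor gene Gdf15 had 41 and 10. Gdf6 followed with 21 and 5, and Wnt10b with 5 and 1, whose interval included 1. Fgf9, a fibroblast growth factor known from the uterine epithelium, was lower on 53 to 223, or 4.23-fold (3.16 to 5.92), and the fat hormone gene Lep was lower on 2 to 9. Hhip, which binds hedgehog ligands and limits their action, was chosen after its values were seen, and had terms of 743 and 174, or 4.25-fold higher (3.61 to 5.07). Nrg1, for a ligand of the ErbB receptors, was also chosen afterwards and had 77 and 19.

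**Figure D2:**
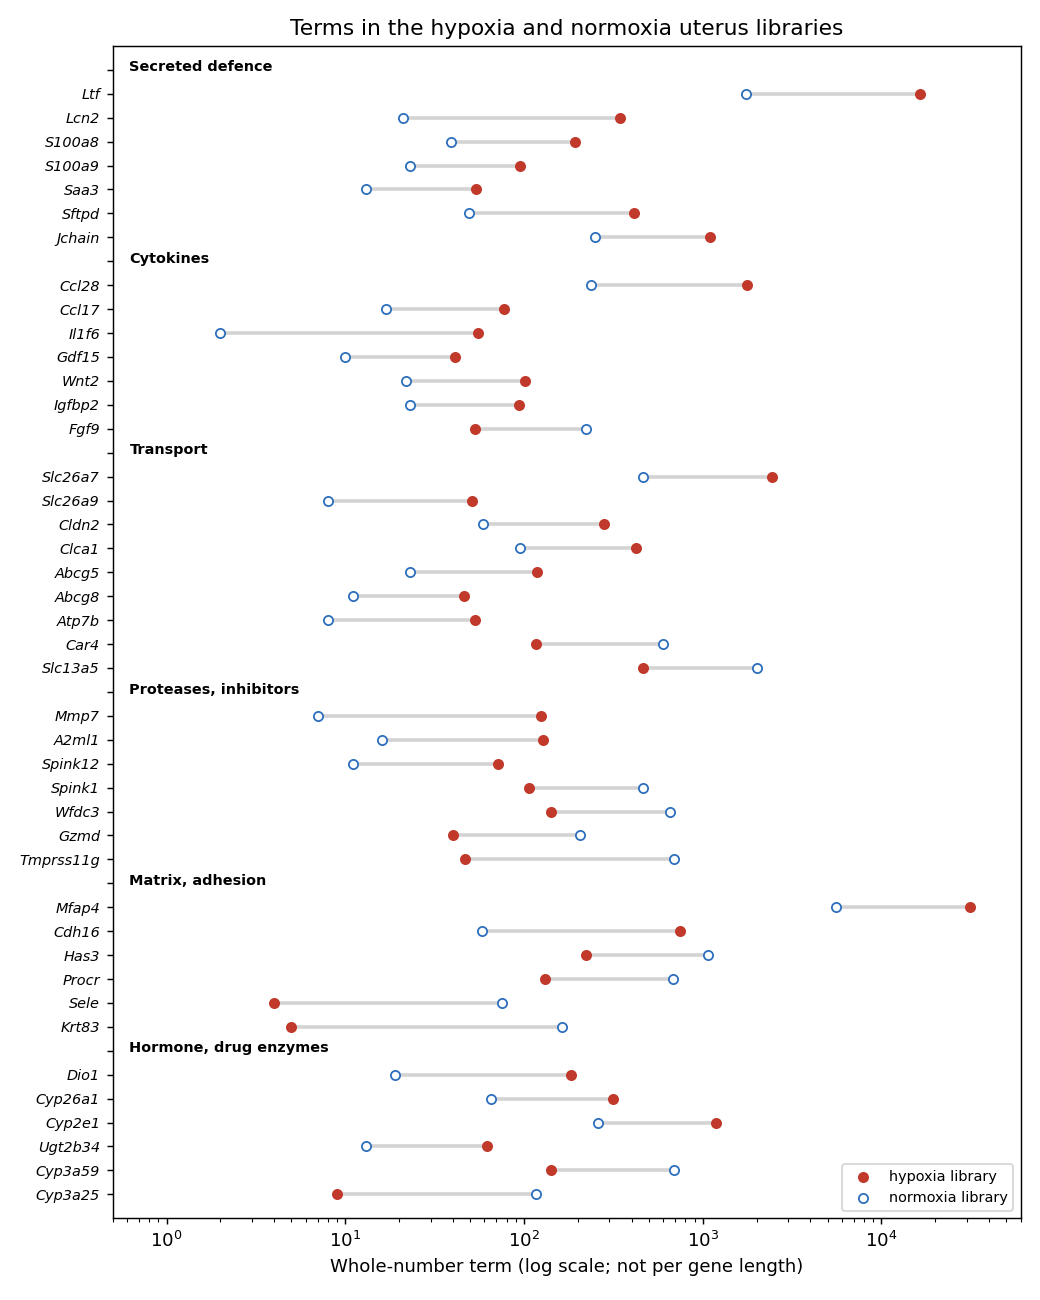
Hypoxia term (filled) and normoxia term (open) of selected genes in the 2 uterus libraries, on a log axis and not per gene length, grouped by role. The line between the points of a gene shows its fold; Ltf runs from 1740 to 16403 and Tmprss11g from 694 down to 47.

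Genes that move ions, bicarbonate and water or make mucus were mostly on the higher side. Of 68 such genes 9 were listed (13.2%, against 1.54% of all protein-coding genes), 7 higher and 2 lower. Their median log2 fold change in the authors' deposited table was 2.32. Slc26a7, an anion exchanger of acid- and base-handling epithelia, had terms of 2447 and 461, or 5.28-fold (4.79 to 5.86). Its relative Slc26a9, a chloride transporter, had 51 and 8, or 6.35-fold (3.21 to 18.6). Clca1, a secreted protein of mucous cells, had 423 and 95, or 4.43-fold (3.57 to 5.65), and the membrane mucin genes Muc20 and Muc13 had 137 and 32, and 13 and 2. The proton pump subunit gene Atp6v1b1 had 7 and 1, and the red cell and kidney anion exchanger gene Slc4a1 5 and 1, with an interval that included 1. On the lower side, Car4, a carbonic anhydrase tethered to the outer cell surface, had terms of 116 and 599, or 5.19-fold lower (4.27 to 6.44). Scnn1g, a subunit of the epithelial sodium channel, was lower on 1 to 5, with an interval that included 1.

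Other transport genes with large terms were chosen after their values were seen, apart from Slc13a5, which the naming rule took. Slc13a5, the sodium-coupled citrate carrier, was lower on terms of 466 to 2019, or 4.35-fold (3.94 to 4.83). Cldn2, which forms tight junction pores for sodium and water, was higher with 281 and 59, or 4.74-fold (3.61 to 6.49). Gabrp, the pi subunit of the GABA receptor chloride channel, which is known from the uterus, was higher with 307 and 42, or 7.28-fold (5.35 to 10.6). Abcg5 and Abcg8, whose products pair to export sterols, were higher with 119 and 23, and 46 and 11. The copper exporter gene Atp7b was higher with 53 and 8. Among the transport genes named here with a term sum of at least 50, Slc13a5 and Car4 were the lower ones.

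Proteases and their secreted inhibitors were listed on both sides, within families too. Of 75 serine protease and inhibitor genes 9 were listed (12%, against 1.54% of all protein-coding genes), 5 higher and 4 lower. The membrane serine protease gene Tmprss11g had terms of 47 and 694, or 14.8-fold lower (11.2 to 20.9), and its relative Tmprss11b was lower on 3 to 26. The trypsin inhibitor gene Spink1 had 107 and 464, or 4.36-fold lower (3.55 to 5.47), and Wfdc3, of the whey acidic protein family of inhibitors, had 142 and 659, or 4.66-fold lower (3.90 to 5.66). Members of the same families lay on the other side, with Spink12 higher at 72 and 11, or 6.51-fold (3.63 to 15.4), and Wfdc18 higher at 19 and 3. The protease genes Prss41 and Klk14 were higher at 11 and 2 and at 7 and 1. A2ml1, a broad protease trap related to alpha-2-macroglobulin, was higher at 127 and 16, or 7.90-fold (4.88 to 15.4). Of 61 serpin genes 3 were listed (4.92%, against the same 1.54%), all lower. Serpina1b, one of several near-identical antitrypsin genes, had 13 and 61. The other listed serpins had small terms, Serpinb1b 2 and 9 and Serpine3 1 and 4, and the interval of Serpine3 included 1. Matrix proteases gave 2 of 40 genes (5%), both higher. They were Mmp12 above and Mmp7 (matrilysin, an epithelial protease) with terms of 125 and 7, or 17.8-fold (9.19 to 57.1).

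The gene with the largest terms of the 337 was a matrix gene. Mfap4, for a microfibril protein of elastic tissue, had terms of 31501 and 5558, or 5.64-fold higher (5.48 to 5.81). It was 1 of the 2 listed among 74 matrix genes (2.70%, against 1.54% of all protein-coding genes). The other was Tinag, a basement membrane antigen, at 27 and 1. No collagen, laminin or fibrillin gene of that list was listed, though changes of theirs under 4-fold could not be seen. Cdh16, a cadherin known from kidney tubules, had terms of 745 and 58, or 12.8-fold higher (9.92 to 17.3). Prap1, a proline-rich secreted protein known from the pregnant uterine epithelium, had 286 and 23, or 12.4-fold higher (8.35 to 20.9). Lower in hypoxia was Has3, a hyaluronan synthase, with 221 and 1072, or 4.87-fold (4.23 to 5.68). Chst4, which was chosen afterwards and sulfates the sugars that L-selectin binds, was lower with 119 and 528. Krt83, a hair keratin gene, was lower on 5 to 163, or 32.8-fold (15.6 to 151). Of 110 keratin and hair keratin associated genes 3 were listed (2.73%, against the same 1.54%), all lower. With so few listed, nothing is read from their shared direction. Besides Krt83 the listed keratin genes were Krt78 on 1 to 14 and Krt39 on 1 to 4, and the interval of Krt39 included 1.

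Of 26 vessel markers 2 were listed (7.69%, against 1.54% of all protein-coding genes), both lower. Procr, the endothelial protein C receptor, had terms of 131 and 684, or 5.25-fold lower (4.37 to 6.42). Sele, for E-selectin, which inflamed endothelium uses to capture leukocytes, had 4 and 75, or 18.8-fold lower (8.16 to 123). General endothelial genes such as Pecam1, Cdh5 and Kdr were not listed.

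Enzymes that handle hormones and small lipophilic compounds were listed in both directions. Of 38 genes of steroid synthesis and clearance 6 were listed (15.8%, against 1.54% of all protein-coding genes), 2 higher and 4 lower. Their median log2 fold change in the authors' deposited table was -2.68. The 3 Cyp3a genes, whose products oxidize steroids and drugs, were all lower. Cyp3a59 had terms of 142 and 687, or 4.86-fold (4.07 to 5.90), Cyp3a25 had 9 and 116, or 12.9-fold (7.09 to 34.3), and Cyp3a16 had 5 and 42. These are near-identical copies, so their separate values are uncertain. Nr5a1, a regulator of steroid synthesis genes, was lower on 1 to 13. On the higher side Ugt2b34, a glucuronosyltransferase gene, had 62 and 13, and the steroid 5-alpha-reductase gene Srd5a2 had 13 and 2. Cyp2e1, which oxidizes ethanol and ketones, was higher with 1187 and 259, or 4.56-fold (3.996 to 5.26). Dio1, the deiodinase that activates or clears thyroid hormone, was higher with 183 and 19, or 9.59-fold (6.19 to 17.4).

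Cyp26a1, which clears retinoic acid and is known to rise in the uterine epithelium before implantation, was the 1 listed of 33 progesterone-response genes. It had terms of 313 and 65, or 4.79-fold higher (3.70 to 6.45). Of 33 retinoid genes the other listed was Isx, a repressor of carotenoid uptake, lower on 1 to 17. The Cyp26a1 promoter is printed because it held a direct repeat of the retinoic acid response type, which capitals mark along with the letters ACGTG and TATAAA.
Cyp26a1, chr19:37697558-37697857, plus strand: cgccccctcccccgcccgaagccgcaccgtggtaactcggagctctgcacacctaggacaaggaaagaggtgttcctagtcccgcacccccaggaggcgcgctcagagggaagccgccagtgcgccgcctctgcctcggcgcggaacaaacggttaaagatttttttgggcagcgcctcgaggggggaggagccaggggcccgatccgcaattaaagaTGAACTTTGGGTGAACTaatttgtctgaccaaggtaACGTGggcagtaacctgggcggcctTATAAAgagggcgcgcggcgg
The direct repeat was searched on both strands as AGTTCA and a second copy of it after 5 bases of any kind. It was found in 8 of the RefSeq genes' promoters (0.0296%) and in 1 of the 263 listed genes with a promoter in the table. The spelling was set after this sequence was read, so that 1 match, in Cyp26a1, was fixed in advance. The match began 32 bases before the gene start, and ACGTG and TATAAA lay 5 and 30 bases after that start.

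Of 46 known low-oxygen response genes, among them Vegfa, Car9, Ldha and Slc2a1, 0 were listed, and 0 of 40 cell division genes. Since 1.54% of all protein-coding genes were listed, lists of this size would hold few in any case, and nothing is read from these counts. The table holds only changes of at least 4-fold, so smaller ones could not be seen. The core letters bound by hypoxia-inducible factors were searched in the promoters on both strands as ACGTG and GCGTG. The letters ACGTG were present for 45 of 263 listed genes (17.1%), against 21.8% of all genes with a promoter, and GCGTG for 62 (23.6%), against 35.2%. Those 27025 genes outnumber the 21924 annotated protein-coding genes, so they are not a like background and nothing is read from the differences. By direction, ACGTG was present for 17.7% of the higher and 16.4% of the lower genes. Among the other motifs, the NF-kappaB letters, GGG and then TTTCC after any 2 bases, were present for 5 genes (1.90%, against 1.89% of all), and the STAT letters TTCNNNGAA for 20 (7.60%, against 9.55%), or 10.9% of the higher and 3.45% of the lower genes. TATAAA was present for 52 (19.8%, against 15.7%). The full estrogen response element, GGTCA and then TGACC after any 3 bases, was in 0 of the 263 windows and in 0.0740% of all. A gene with several promoters counted if any held the letters, matches of different motifs could overlap, and these shares describe windows of 300 bases only.

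Genes of the estrogen response were listed on both sides. Of 36 such genes 8 were listed (22.2%, against 1.54% of all protein-coding genes), 6 higher and 2 lower. Their median log2 fold change in the authors' deposited table was 2.86. Ltf, Lcn2 and Clca1 above carried large terms. The Sprr2 genes encode small proline-rich proteins of the epithelial surface, and had terms of 43 and 1 for Sprr2d, 38 and 1 for Sprr2b, and 17 and 3 for Sprr2a3. Sprr2e was lower on 1 to 4, with an interval that included 1, and Fgf9 was the other lower member. With terms read as counts plus 1, a normoxia term of 1 is 0 reads if no common factor was lost. The folds of Sprr2d and Sprr2b would then have no fixed size. Near-identical copies in this family make the split among its members uncertain.

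**Figure D3:**
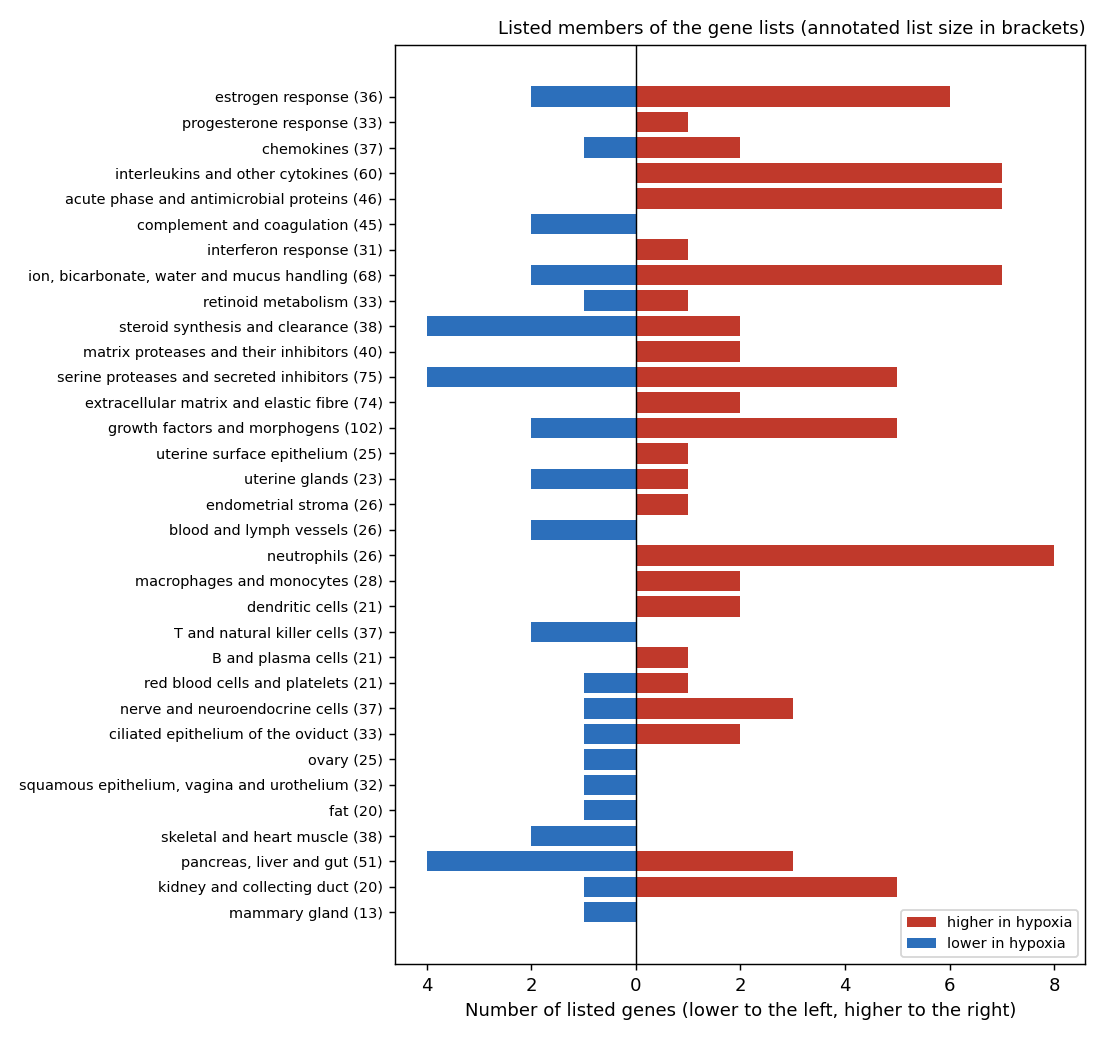
Number of listed genes higher (right) and lower (left) in hypoxia for each gene list with at least 1 listed member, with the number of annotated genes of the list in brackets. The neutrophil list stands at 8 higher, and the cytokine and the acute phase and antimicrobial lists at 7 higher each, with none lower.

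Markers of the tissue compartments of the uterus gave a few listed genes each. Of 23 gland genes 3 were listed (13.04%, against 1.54% of all protein-coding genes), 1 higher and 2 lower, Spink1 and Wfdc3 as above and Guca2a, a guanylin peptide gene, at 5 and 1 with an interval that included 1. Of 25 genes of the surface epithelium only Il1f6 was listed, of 26 stromal genes only Mfap4, and of 20 smooth muscle genes 0. The table gives no level for unlisted genes, so the labelled tissue could not be checked against its defining markers. Mast cell, eosinophil and basophil markers gave 0 of 24 and embryo and trophoblast markers 0 of 27, and the B and plasma cell list gave Jchain alone of 21. These counts cover only the genes on each list. The placental genes Plac1 and Psg16, picked out afterwards, are outside the embryo and trophoblast list. Their log2 fold changes in the authors' deposited table were -2.71 and 2.32. Complement and coagulation genes gave 2 of 45, Procr and the complement gene C8a at 1 to 6, both lower, and the interval of C8a included 1. Interferon-response genes gave 1 of 31, Ifi44l, higher at 9 and 1. Red cell and platelet markers gave Slc4a1 and Ppbp of 21, in opposite directions.

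Genes better known from other organs were listed as well. Of 20 kidney and collecting duct genes 6 were listed (30.0%, against 1.54% of all protein-coding genes), 5 higher and 1 lower. They were Cdh16, Slc26a7, Kif12 (a kinesin) at 24 and 1, Tinag, Slc4a1 and, lower, Scnn1g, on a list drawn up with earlier results of these data known. Of 51 pancreas, liver and gut genes 7 were listed (13.7%), 3 higher and 4 lower. The trefoil peptide genes Tff2 and Tff3, which protect mucous surfaces, were higher at 11 and 1 and at 10 and 1, beside Cyp2e1. The pancreatic carboxypeptidase gene Cpa1 was lower on 1 to 26, with Isx, Serpina1b and the liver glycoprotein gene Ahsg at 1 to 4. Of 38 skeletal and heart muscle genes the actin gene Actc1 was lower on 1 to 22 and the embryonic myosin gene Myh3 on 1 to 4, and the intervals of Ahsg and Myh3 included 1. Of 32 squamous and urothelial genes Krt78 was lower on 1 to 14, and of 13 mammary genes the milk fat globule gene Btn1a1 on 1 to 10. Lep was the 1 listed of 20 fat genes and Nr5a1 the 1 listed of 25 ovary genes. Of 33 oviduct cilia genes the dynein gene Dnah6 was lower on 27 to 113, while its relative Dnah9 and the axoneme gene Spag17 were higher at 12 and 1 and at 7 and 1. The part of other tissue taken with the uterus in these values was not tested.

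Nerve and secretory vesicle genes were listed on both sides. Of 37 nerve and neuroendocrine genes 4 were listed (10.8%, against 1.54% of all protein-coding genes). Nefm (a neurofilament) at 29 and 1, Elavl4 at 6 and 1 and Npy at 22 and 5 were higher. Chga was lower on 1 to 5, and the intervals of Elavl4 and Chga included 1. Syt15, of the synaptotagmin family of membrane-trafficking proteins, was lower with 885 and 3967, or 4.50-fold (4.19 to 4.85), and Syt6 was lower on 8 to 47. Synpr, a vesicle membrane protein, was higher with 149 and 15, or 9.89-fold (6.08 to 19.7). Lrrtm1, a synaptic adhesion protein, was higher with 245 and 33, or 7.39-fold (5.24 to 11.3), while Lrrn4, another leucine-rich repeat membrane protein, was lower with 290 and 1663, or 5.76-fold (5.10 to 6.57). Lhx6, a homeobox factor known from cortical interneurons, was lower with 156 and 857, or 5.52-fold (4.67 to 6.63). Further named genes were Veph1 at 82 and 11, Gramd2 at 164 and 21 and Tmem72 at 52 and 5 on the higher side. On the lower side were the protocadherin gene Pcdh8 at 8 to 57, Rtp3 at 7 to 51 and the sialyltransferase gene St6galnac1 at 15 to 79.

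The better-counted genes not yet described were chosen after their values were seen. Higher in hypoxia were the glutamate receptor family gene Grid1 at 170 and 39, the actin-binding gene Avil at 159 and 35, the myocilin gene Myoc at 120 and 29 and the ubiquitin-like gene Ubd at 99 and 19. The serotonin receptor gene Htr1d at 74 and 13, Itprid1 at 77 and 16, the lipase gene Pnliprp2 at 46 and 11 and the phosphatase gene Ptprh at 45 and 11 were also higher. Psrc1, for a spindle protein, was lower at 128 to 571.

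The remaining 260 genes had term sums under 50, 140 higher and 120 lower, and few of them carry weight singly. Receptors of smell, pheromones and taste were among them, 6 of 1134 olfactory and 4 of 387 vomeronasal and taste receptor genes, with term sums of at most 25. These shares of 0.529% and 1.03% lay below 1.54%. Zinc finger genes gave 4 of 455, all higher, of which Zfp804a reached a sum of 51. Solute carriers gave 11 of 385, 5 higher and 6 lower, and cytochrome P450 genes 7 of 99, 3 higher and 4 lower. Of 102 histone genes 4 were listed, with sums of at most 17, and of 98 ribosomal protein genes 0. Unnamed gene models made up 35 of the 337, 17 higher and 18 lower.

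Listed genes that lie close together on the chromosome mostly shared a direction. Of 22 pairs of listed genes next to each other and within 100 kb on GRCm38, 12 were both higher, 6 both lower and 4 opposite. As 57.0% of all 337 genes were higher, many pairs would share a direction wherever they lay, and the count was not tested. On chromosome 3, Sprr2a3, Sprr2b and Sprr2d were higher between 92285417 and 92340873, while Sprr2e next to them was lower. S100a8 and S100a9, between 90668978 and 90695721 on the same chromosome, were higher, while S100a3 on one side was lower at 5 to 24. Gzme and Gzmd on chromosome 14, between 56117626 and 56132608, were both lower, as were Cyp3a25 and Cyp3a59 on chromosome 5, between 145977194 and 146113287. The interleukin-36 family genes Il1f9 and Il1f6 on chromosome 2 and the trefoil genes Tff3 and Tff2 on chromosome 17 were higher in pairs. Abcg5 and Abcg8 lie on opposite strands of chromosome 17, from 84658234 to 84700333 together, and overlap from 84676302 to 84683011. Without strand, reads from exons that overlap there cannot be told apart. Ltf, on chromosome 9 from 111019271 to 111042767, lies beside the lower gene Rtp3. Many of these pairs belong to 1 gene family, and shared or divided reads between copies were not tested; the neighbours were picked out after their values were seen.

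**Figure D4:**
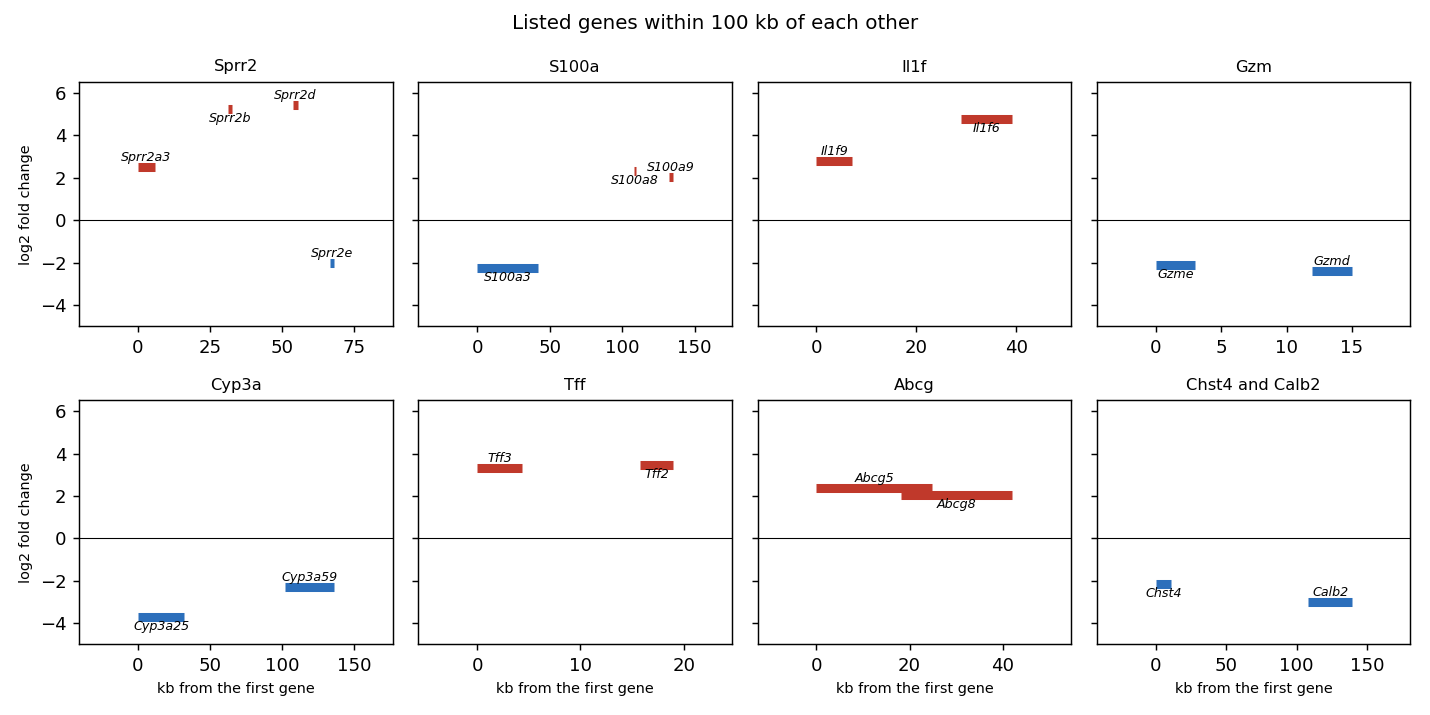
Deposited log2 fold change of 8 selected groups of listed genes that lie within 100 kb of each other, drawn over the span of each gene as the distance in kb from the first gene of the group. The Sprr2 and S100a groups hold genes of both signs, and the other 6 groups drawn lie on 1 side. The opposite pairs Krt83 with Gm49425 and Rtp3 with Ltf are not drawn.

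Some of the genes were also listed in the ovary of the same study, whose 2 libraries came from the same oxygen groups. The ovary table shared 19 of the 337 genes (5.64%), or 8.56% of its own 222 protein-coding genes, which made up 1.01% of those annotated. Of the 19, 6 were higher and 5 lower in both tissues, and 8 had opposite signs. The counting intervals lay beyond 1 in both tissues for 7 of the 19. Trem1 was higher in both, with 19 and 2 in the uterus and 10 and 1 in the ovary. Spink12 was higher in both, with 72 and 11 in the uterus and 5 and 1 in the ovary, where its interval included 1. Cadps, a vesicle release gene, was higher with 27 and 5 and with 45 and 7. None of the large-term uterus genes Ltf, Mfap4, Slc26a7, Ccl28, Syt15, Cdh16 or Slc13a5 was in the ovary table.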

How the data were processed

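RNA was extracted with ISOGEN II, polyadenylated RNA was captured on beads and directional libraries were made, per the labels' protocols. FastQC 0.73, HISAT2 2.2.1, HTSeq 0.9.1, DESeq2 2.11.40.7 and build mm10 are named in the submitters' processing notes, without their options. The authors deposited 1 log2 fold change per gene for each tissue, only at an absolute value of at least 2, with no levels or totals, so sequencing depth is unknown. Terms were found for all 337 genes at a relative tolerance of 5e-14, and the largest error over the table was 6.88e-15. Folds are ratios of terms times the shared factor, with exact Clopper-Pearson intervals from the terms less 1. The step was tested on simulated data. Positions and the 21924 protein-coding symbols came from GENCODE M21 (GRCm38, the assembly of mm10), where 334 of the 337 were found by chromosome and by symbol or a single synonym. Promoters came from RefSeq, with 263 genes matched.

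The genes, the 38 gene lists and the tests were chosen with earlier results of these data known. The text names list members, the 15 largest folds a direction and the 10 largest term sums among better-counted genes, and says where others were added; the place classes, the neighbours, the promoter motifs and the family examples were chosen after the values were seen. Alternatives were a threshold of 3, a term sum of 50, leaving out 1 to 4 ratios, a pseudocount of 5, terms read as counts and 99% intervals. Python 3.11.15, NumPy 2.4.6, pandas 2.3.3, SciPy 1.17.1 and matplotlib 3.10.9 were used.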

Additional observations from a re-analysis of the deposited data

Results flagged for a closer look

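Genes listed in both tissues with opposite signs are given here with the uterus value first, per the authors' deposited tables. Saa3 had 2.05 and -2.64, Edar -2.12 and 2.08, Acsm5 2.16 and -2.24, Fat2 2.99 and -2.14, Calb2 -3.01 and 3.51, Bhmt2 -3.81 and 2.51, Serpine3 -2.01 and 3.25, and Tex22 2.32 and -2.66. They drew attention because the sign differed between tissues, a difference that was not tested and that rests on 1 pooled library a group. Saa3 had terms of 54 and 13 in the uterus and of 209 and 1244 in the ovary. The other 7 genes had uterus terms of at most 14 and ovary terms of at most 31. The counting intervals of Tex22 in both tissues, of Serpine3 in the uterus and of Bhmt2 in the ovary included 1.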

How the results depend on the processing

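At an absolute log2 fold change of 3, 77 genes remained listed by count, 43 higher and 34 lower. With a term sum of at least 50, 77 were left, 52 higher and 25 lower. A pseudocount of 5 left 83 past the threshold, 52 higher and 31 lower. These settings remove genes by construction. Without the 32 genes at 1 to 4, which have no counterpart because 4 to 1 gives 1.99, the counts were 305 in all and 113 lower. Intervals beyond 1 numbered 209 with terms read as counts and 184 at 99%, against 235. Without Ltf and Lcn2, a choice made after seeing the data, 6 neutrophil markers were listed. That these 6 were all higher had to follow, because all 8 were, so it is no check. Of 108 genes named by rule, 56 stayed past the threshold with a pseudocount of 5 and 52 came below it. That 0 changed sign was fixed in advance, since adding the same number to both counts only draws such folds towards 1. For 7 of them, each with a term of 1, the value also left its counting interval. Sprr2d came to 3.23, Sprr2b to 3.06, Nefm to 2.72, Tinag to 2.63, Kif12 to 2.48, Cpa1 to -2.59 and Actc1 to -2.39. No paired analysis was possible because each group is 1 pooled library. Depth is unknown, and genes under the 4-fold threshold are not analysed here.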
